A study of Bos taurus with 12 samples.

Results

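Long noncoding RNAs (lncRNAs) of bovine intramuscular preadipocytes were compared between day 3 of adipogenic differentiation and all other sampled days. The comparison sets the 3 libraries of 3 d against the 9 libraries of 0, 6 and 9 d, out of 12 libraries in all. Of the 7035 deposited lncRNA transcripts, 6906 had a mean of at least 0.1 FPKM, the fragments mapped to a transcript scaled by its length and by the mapped reads of the library, over the 12 libraries and were tested, and 129 lay below that level. Each transcript carries an assembler's name such as MSTRG.8720.1, in which the first number is the locus and the second the transcript of that locus.

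The preadipocytes, fibroblast-like precursors of fat cells, had been grown out of the longissimus dorsi, a back muscle, of Qinchuan calves just after birth. The 0 d libraries come from cells at the start of the course and all others from cells induced near confluence with IBMX (an inhibitor of phosphodiesterases), dexamethasone (a synthetic glucocorticoid) and insulin, and then kept in insulin alone, so that at 3 d the inducing mixture had already been withdrawn. No day had a parallel uninduced culture, so day in culture and time after induction cannot be told apart. The paper calls the 3 libraries of a day biological replicates, but the sources used here do not say whether they came from different animals, and p-values measure the spread between these libraries.

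LncRNAs are transcripts over 200 bases long with no recognised coding capacity. Known examples act in the nucleus on chromatin and transcription, serve as scaffolds for proteins, or bind microRNAs in the cytoplasm. They are as a group less abundant than messenger RNAs, and many are restricted to a cell type or stage. In fat cell differentiation the hormonal mixture starts an early wave of transcription factors, after which the lipid storage programme takes over.

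For 4 of the transcripts described below the study designed quantitative PCR primers, and these are the sequences that tie the assembler's names to a physical transcript. Each is written 5′ to 3′, and no base is marked by capitals.
MSTRG.20301.1 forward: ttttcatctgagggtcgggc
MSTRG.20301.1 reverse: tcggacctcaaatacagccg
MSTRG.20342.1 forward: aggcagcccacagattactg
MSTRG.20342.1 reverse: aatgctgtgccagtctgtga
MSTRG.11050.1 forward: atcggcatcgagaaccttgg
MSTRG.11050.1 reverse: tcatgtcgccagttgctagg
MSTRG.5025.1 forward: ggccaaatgccagacacaag
MSTRG.5025.1 reverse: ttgctcaaggccaactcaca
The paper also measured the transcripts that have primers by quantitative PCR during differentiation. It reports that their trends closely followed those of its sequencing. The PCR values were not used here. The sequences and positions of the transcripts themselves were not used either.

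On the scale of the deposited FPKM the lncRNAs as a group stood higher at 3 d than on the other days, a shift that rescaling each library by its median lncRNA ratio removes by construction. The median of log2(FPKM + 0.1) over the tested transcripts was 0.65, 0.00 and -0.03 in the 3 d libraries. The 0 d libraries had -0.23, 0.20 and -0.54, those of 6 d had -0.15, -0.40 and -0.49, and those of 9 d had -0.34, -0.47 and -0.58. The first 3 d library was thus the highest of the 12, and the second 0 d library lay above the other two 3 d libraries. The mean was 0.21 ± 0.38 (SD, n = 3) at 3 d and -0.33 ± 0.24 (SD, n = 9) on the other days, a difference of 0.54 on the log2 scale (exact permutation test over 220 splits, two-sided, p = 0.0182, adjusted p = 0.0379 over 5 library measures). Without the first 3 d library the difference was 0.32 (exact permutation p = 0.0909). Without both that library and the second 0 d library it was 0.39 (exact permutation p = 0.0222, the smallest value that the remaining libraries can give). Both were left out for their high medians after the values were seen, so this p is not separate support for the shift.

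The number of lncRNAs at or above 1 FPKM was also highest in the first 3 d library and next highest in the second 0 d library, with 4457, 3120 and 3097 at 3 d against 1911 to 3606 on the other days (exact permutation p = 0.0227, adjusted p = 0.0379). In contrast, the number above 0 FPKM was 6247 to 6304 at 3 d and 6251 to 6397 on the other days, and this difference of -54.2 did not pass (exact permutation p = 0.0636, adjusted p = 0.0795). The summed lncRNA FPKM averaged 76307 ± 16142 (SD, n = 3) at 3 d and 53496 ± 7796 (SD, n = 9) otherwise (exact permutation p = 0.0136, adjusted p = 0.0379). The 10 most abundant transcripts held 67.4% to 74.7% of that sum at 3 d and 61.1% to 80.0% on the other days (exact permutation p = 0.45). Without these 10 the sum was 18000 to 23977 FPKM at 3 d and 12605 to 20753 FPKM on the other days. These ranges overlap, and the difference without the 10 was not tested. In bulk libraries a change in the RNA of each cell and a change in which cells are present cannot be told apart.

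Against the mean of the other days, the median over 15402 genes of the mRNA table did not move in this way. It was 2.27 to 2.32 at 3 d and 2.19 to 2.46 on the other days. Its mean difference was 0.0018 (exact permutation p = 0.968). This pooled difference averages days that lay on opposite sides of 3 d. At the start of the course the medians were 2.41 to 2.46, above every 3 d library. On the days after 3 d they were 2.19 to 2.266, below the lowest 3 d library at 2.272. The summed FPKM of that table was lower at 3 d, with 1248435 ± 24861 (SD, n = 3) against 1324893 ± 28401 (SD, n = 9) (exact permutation p = 0.00455, the smallest value that 220 splits can give, adjusted p = 0.0227).

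**Figure D1:**
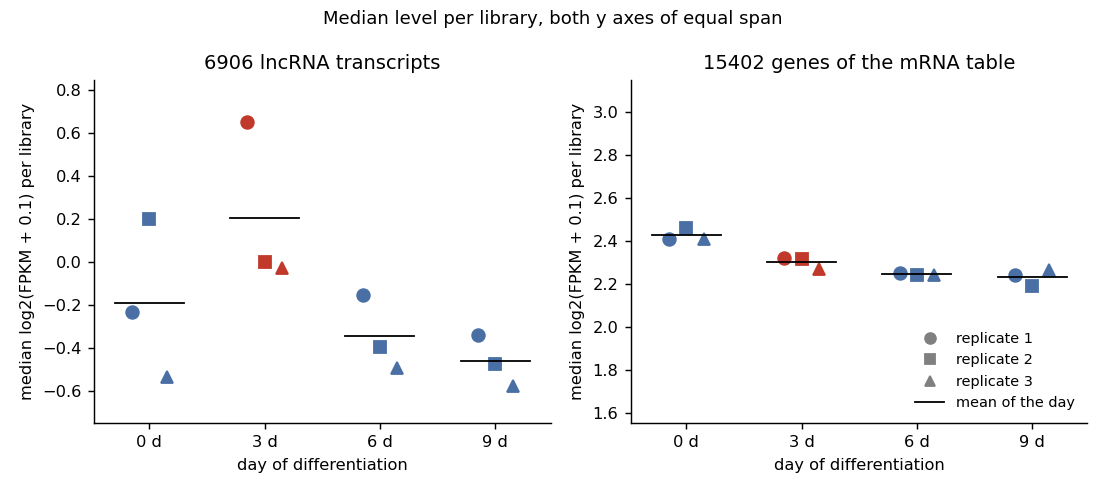
Median log2(FPKM + 0.1) in each of the 12 libraries (y axis) by day of differentiation (x axis), for the 6906 lncRNA transcripts on the left and the 15402 genes of the mRNA table on the right. Each point is a library, its shape gives the replicate number, and bars are day means. The first 3 d library (0.65) and the second 0 d library (0.20) stand above the others on the left, while on the right all libraries lie between 2.19 and 2.46.

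Across the transcripts, 1943 of 6906 lncRNAs (28.1%) were called at 3 d against the mean of the other days, with 1358 higher (19.7% of those tested) and 585 lower (8.47%). A call needs an absolute log2 difference over 1 and an adjusted p under 0.05 in limma, fitted on log2(FPKM + 0.1) with a mean for each day. The median log2 difference over all tested lncRNAs was 0.44, and 66.1% of them were above 0. Among the transcripts called higher the median difference was 1.60, and 29.2% of them exceeded 2 on the log2 scale. Those called lower were fewer but had larger differences, with a median of -1.93 and 46.5% beyond -2. This contrast of sizes depends in part on applying the threshold of 1 on a scale where the median difference was 0.44. Sizes after rescaling were not summarised. Differences beyond 3 on the log2 scale were found for 102 transcripts called higher and 76 called lower.

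The share of higher calls depended on how libraries were put on a common scale. With the deposited FPKM 69.9% of the called lncRNAs were higher. When the FPKM were rescaled by each library's median lncRNA ratio, which moves the median difference of all lncRNAs from 0.44 to -0.02, 1555 lncRNAs were called (22.5% of those tested). Of these, 687 (44.2% of the calls, 9.96% of those tested) were higher and 868 (12.6% of those tested) lower. Of the 1943 calls, 1271 were called in the same direction after rescaling, namely 687 of the 1358 higher and 584 of the 585 lower, and none was called in the opposite direction. The 284 lower calls beyond these had not been called on the deposited values. Rescaling by the mRNA table left 1270 higher and 596 lower calls (68.1% higher). Whether lncRNAs rose at 3 d relative to all RNA therefore rests on the scale of the deposited FPKM, whereas the 1271 shared calls hold relative to the median lncRNA too.

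**Figure D2:**
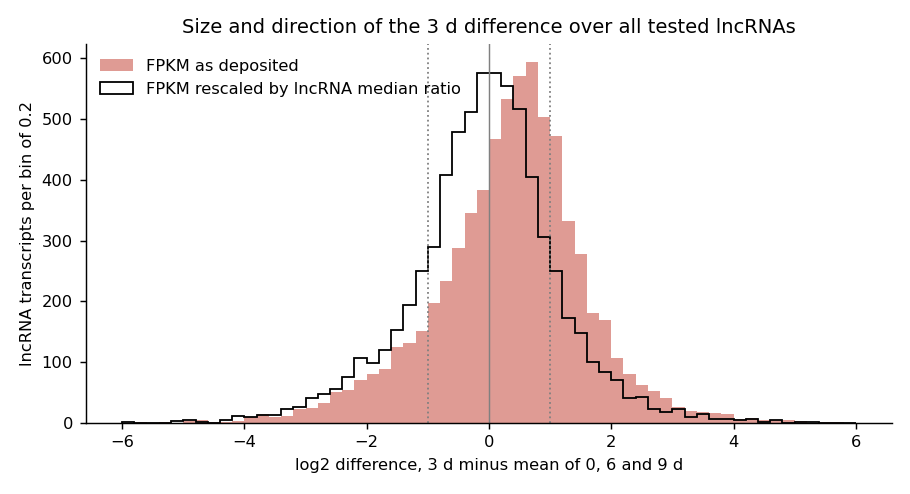
Number of lncRNA transcripts (y axis, bins of 0.2) by log2 difference of 3 d from the mean of 0, 6 and 9 d (x axis), with the deposited FPKM filled and the FPKM rescaled by the lncRNA median ratio as a line. Dotted lines mark the fold threshold of 1. The filled distribution is centred at 0.44 and the line at -0.02, and 687 rather than 1358 transcripts are called higher under the line.

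The 3 d libraries differed from each other in the size of the shift. The median log2 difference from the mean of the 9 other libraries was 0.76 in the first 3 d library, 0.25 in the second and 0.25 in replicate 3. Over the transcripts called higher these medians were 2.0, 1.40 and 1.40, and over those called lower they were -1.83, -2.07 and -2.02. Of the 1358 transcripts called higher, 94.6% in the first library, 83.2% in the second and 81.3% in replicate 3 lay above all 9 other libraries. For the 585 called lower, 68.7%, 76.8% and 76.1% lay below all 9. The calls were made on these same libraries, so the shares are raised by selection. Over all tested lncRNAs, all 3 d libraries together lay above the 9 others for 18.4% and below them for 5.62%. Shares for each library over all tested lncRNAs were not computed. The first 3 d library was the highest of its day for 72.8% of the transcripts called higher and for 61.5% of all tested, and the second 0 d library was the highest of the other 9 for 33.6% and 36.3%. Without the first 3 d library 1451 lncRNAs were called and 881 (60.7%) of them were higher, and the number called lower was 570.

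For 1309 of the 1943 called lncRNAs all 3 d libraries lay outside the range of the 9 others, 970 of them above and 339 below. Over all tested lncRNAs 24.0% did so (18.4% above and 5.62% below), and 350 of these were not called. On log2(FPKM + 0.1), Pearson r across the 6906 lncRNAs was 0.67 to 0.72 for the 3 pairs of 3 d libraries and 0.62 to 0.72 for pairs within another day. It was 0.39 to 0.53 for the 27 pairs of a 3 d library with another day, and 0.55 to 0.69 for pairs between 0, 6 and 9 d. These r are across transcripts, which are not independent replicates. The median standard error of the 3 d difference was 0.37 for lncRNAs and 0.14 for genes of the mRNA table.

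Compared with single days, 3 d differed from 0 d by 1029 higher and 583 lower lncRNAs (23.3% called), from 6 d by 1123 higher and 505 lower (23.6% called), and from 9 d by 1336 higher and 510 lower (26.7% called). After rescaling by the lncRNA median ratio these were 700 higher and 844 lower against 0 d, 535 and 781 against 6 d, and 601 and 832 against 9 d, so the larger count changed side in each. These comparisons share the 3 d libraries. In all 3 of them, 598 transcripts (8.66% of those tested) were called higher and 262 (3.79%) lower, 12.5% together. The other days gave fewer calls against the rest, with 660 lncRNAs at 0 d (9.56% called), 342 at 6 d (4.95% called) and 441 at 9 d (6.39% called). No test compared these counts with that of 3 d.

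Of the 598 transcripts that were higher at 3 d than on every other day, 522 (87.3%) lay within 1 log2 unit of 0 d at 6 d and 542 (90.6%) at 9 d. Over all tested lncRNAs these shares were 75.8% and 74.9%, and the pseudocount of 0.1 compresses differences between low levels. Of all tested lncRNAs 6.37% were called at 6 d against 0 d and 6.79% at 9 d against 0 d. In the latter comparison 13 of the 598 were called higher and 6 lower. Of the 262 transcripts that were lower at 3 d than on every other day, 184 (70.2%) lay within 1 log2 unit of 0 d at 6 d and 180 (68.7%) at 9 d. Called at 9 d against 0 d were 46 of these, 28 of them higher.

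Calls were spread over the range of abundance, and the direction changed along it. Among 3808 lncRNAs with a mean of 0.3 to 1 FPKM, 933 were called higher and 357 lower. In the 2081 with a mean of 1 to 3 FPKM these numbers were 324 and 160, and in the 410 with 3 to 10 FPKM they were 48 and 38. At 10 FPKM or more, 9 of 182 were called higher and 18 lower. Below 0.3 FPKM 44 of 425 were called higher and 12 lower. After rescaling by the lncRNA median ratio the 3808 transcripts of 0.3 to 1 FPKM had 498 higher and 493 lower calls, and every class with a mean of 1 FPKM or more had more lower than higher calls. Below 0.3 FPKM 37 were then higher and 14 lower. The classes use the mean over all libraries, 3 d included, and the pseudocount limits how far a low transcript can fall. The change of direction along abundance is therefore partly built in.

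The transcripts with the largest rises at 3 d read at most 2.53 FPKM in any library of another day. They were taken as the 10 with the largest log2 difference among called transcripts with a mean of at least 1 FPKM whose 3 d libraries lie above all others. Their means over the other 9 libraries were 0.076 to 0.67 FPKM, so all 10 reached that level through 3 d alone. Low levels elsewhere thus follow in part from the rule. MSTRG.14115.1 and MSTRG.19454.1, with means of 0.076 and 0.097 FPKM elsewhere, also passed the filter of 0.1 FPKM through 3 d alone. All 10 were called after rescaling too, with log2 differences of 3.37 to 4.38 rather than 3.82 to 4.85. The largest belonged to MSTRG.14115.1, at 5.12, 3.47 and 4.64 FPKM in the 3 d libraries and between 0.00 and 0.31 FPKM (median 0.05) in the other 9. Its log2 difference was 4.85 ± 0.32 (SE, limma adjusted p = 2.77e-06). MSTRG.19454.1 had 5.95, 4.50 and 4.61 FPKM at 3 d and at most 0.21 FPKM elsewhere, a log2 difference of 4.75 ± 0.32 (SE, limma adjusted p = 3.31e-06). In both transcripts the lowest 3 d library was more than 10 times the highest library of another day.

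MSTRG.22366.1 had the most even levels of the 10. Its FPKM was 7.89, 8.13 and 6.93 at 3 d, and it lay between 0.29 and 0.54 (median 0.47) in the other libraries. The log2 difference was 3.88 ± 0.19 (SE, limma adjusted p = 3.02e-07), and the transcript returned at 6 d to 0.33, 0.36 and 0.46 FPKM. MSTRG.23911.1 read 9.66, 7.54 and 5.55 FPKM at 3 d and 0.00 to 0.72 FPKM elsewhere (log2 difference 4.27 ± 0.40, SE, limma adjusted p = 2.94e-05).

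A group of these transcripts was listed at 0 in every 0 d library and kept part of its rise at 6 d. MSTRG.5458.1 was at 5.3, 4.53 and 4.68 FPKM at 3 d, at 0.34, 0.41 and 0.63 FPKM at 6 d and at 0.03 to 0.10 FPKM at 9 d. MSTRG.13964.1 had 14.22, 5.16 and 4.22 FPKM at 3 d and 2.53, 1.40 and 1.11 FPKM at 6 d, and its neighbour by locus number, MSTRG.13967.1, had 10.56, 4.88 and 3.39 FPKM and then 1.79, 0.49 and 1.09 FPKM. In both, the first 3 d library was more than 2 times the others of its day.

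For 3 of the 10, replicates disagreed. MSTRG.6875.4 read 30.48 and 21.58 FPKM in the first and second 3 d library but 0.48 FPKM in replicate 3, against at most 0.41 FPKM on the other days (log2 difference 4.30 ± 0.95, SE, limma adjusted p = 0.00507). MSTRG.16856.2 was at 2.42, 3.31 and 2.60 FPKM at 3 d, at 2.17 FPKM in the second 0 d library and 1.65 FPKM in the first 9 d library, and listed at 0 in the 7 others. Its adjusted p of 0.0146 became 0.0501 without the first and 0.0537 without the second 3 d library (range over the 12 libraries left out 0.00216 to 0.0537), and it was called against 6 d alone. MSTRG.24042.3 had 4.10, 4.32 and 2.94 FPKM at 3 d and was either at 0 or between 0.68 and 0.98 FPKM elsewhere (limma adjusted p = 0.0106).

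The transcripts with the largest falls, chosen by the same rule below all other libraries, read at most 0.56 FPKM at 3 d and, except MSTRG.22585.1, at least 0.31 FPKM in every library of another day. Of the 10, 9 were called lower against each of 0, 6 and 9 d, and all 10 were called after rescaling. MSTRG.8720.1 read 0.26, 0.17 and 0.19 FPKM at 3 d. It was at 15.48, 19.33 and 8.90 FPKM at 0 d, at 17.53, 17.99 and 11.83 FPKM at 6 d, and at 22.49, 20.17 and 17.64 FPKM at 9 d. The groups are far apart, and the log2 difference was -5.75 ± 0.22 (SE, limma adjusted p = 6.72e-08).

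MSTRG.8735.1 combined a fall at 3 d with a later rise. It was at 2.21, 2.1 and 2.07 FPKM at 0 d and at 0.47, 0.44 and 0.56 FPKM at 3 d. At 6 d it reached 59.91, 63.60 and 58.24 FPKM, and at 9 d 115.96, 121.73 and 95.75 FPKM. Its log2 difference was -1.92 against 0 d and -7.56 against 9 d, so the pooled value of -5.39 ± 0.11 (SE, limma adjusted p = 4.34e-10) is mostly that of the later days. MSTRG.22760.1 behaved alike, at 0.00, 0.05 and 0.00 FPKM at 3 d, 0.31 to 1.09 FPKM at 0 d and 3.16 to 4.21 FPKM at 6 and 9 d.

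The others fell from their 0 d level and stood near or above it later. MSTRG.10964.1 was at 1.80, 1.51 and 1.56 FPKM at 0 d, at 0.00, 0.09 and 0.00 FPKM at 3 d, and at 1.54 to 2.63 FPKM afterwards (log2 difference -4.03 ± 0.22, SE, limma adjusted p = 8.34e-07). MSTRG.8723.1, MSTRG.8724.1 and MSTRG.8721.1 read at most 0.31 FPKM at 3 d and at least 2.42 FPKM in each of the 9 others. MSTRG.25421.1 and MSTRG.23120.1 were listed at 0 in all 3 d libraries, against 1.12 to 4.48 FPKM and 0.68 to 2.64 FPKM elsewhere, and no fold is given for them (limma adjusted p = 2.87e-08 and 1.26e-05).

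A less regular member of this group was MSTRG.22585.1. It was at 0.01, 0.01 and 0.02 FPKM at 3 d but ranged from 0.03 to 38.92 FPKM on the other days, with 0.26 FPKM in the second 0 d library and 0.03 FPKM in the first 6 d library. Its adjusted p of 0.0212 rose to 0.0730, 0.0628 and 0.0578 without the first, second and last 3 d library (range over the 12 libraries left out 0.00456 to 0.0730), and it was 0.0662 with a pseudocount of 1.

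**Figure D3:**
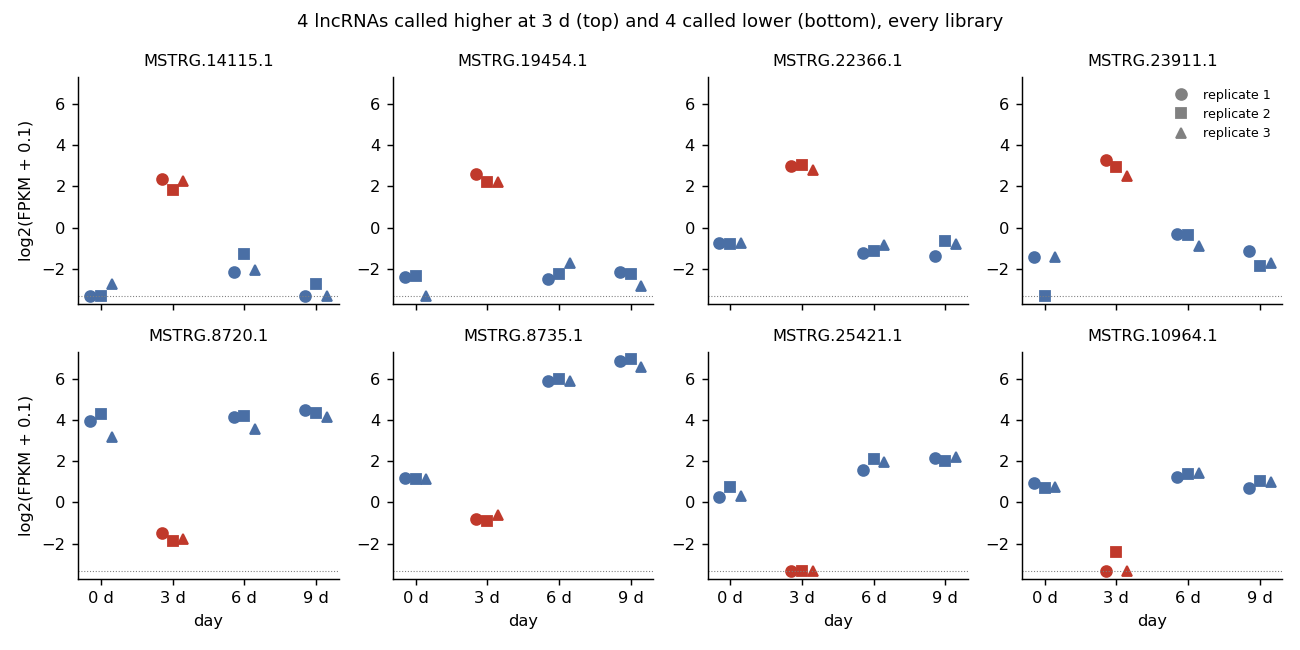
log2(FPKM + 0.1) of 8 lncRNAs (y axis) in each library by day (x axis), with 4 called higher at 3 d on top and 4 called lower below. Points are libraries, shapes replicate numbers, and the dotted line marks 0 FPKM. In every panel the 3 red 3 d points lie outside the 9 blue points of the other days, as the rule that chose the transcripts required. MSTRG.8735.1 rises to 95.75 to 121.73 FPKM at 9 d. All 8 were also called after rescaling by the lncRNA median ratio.

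Some transcripts were listed at 0 on one side of the comparison. Above 0 in all 3 d libraries and listed at 0 in all 9 others were 4 transcripts, named here after their values were seen, and these passed the filter on low values through 3 d alone. MSTRG.20293.2 read 1.48, 1.06 and 1.51 FPKM at 3 d, MSTRG.5144.1 1.2, 1.09 and 1.56 FPKM, MSTRG.5143.1 2.08, 0.44 and 0.77 FPKM, and MSTRG.22057.1 0.01, 1.08 and 2.67 FPKM. Listed at 0 in all 3 d libraries and above 0 in all 9 others were 40 transcripts, of which 37 were called lower. Since one criterion needs 9 libraries at 0 and the other 3, the counts are not comparable. Their mean FPKM on the other days had a median of 0.665.

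The 10 most abundant lncRNAs contributed nothing to the calls, since none of them was called. Several switched between very high and near 0 within a day. MSTRG.21028.1 was at 24679 and 18036 FPKM in the first and second 3 d library and listed at 0 in replicate 3, and it was at 0 in 7 of the 9 others. MSTRG.16361.1 had 4518 and 4692 FPKM in the first and last 3 d library but 16.72 FPKM in the second, against 4.73 to 1123 FPKM elsewhere (log2 difference 4.43 ± 2.02, SE, limma adjusted p = 0.109). Without the second 3 d library its adjusted p was 0.0180 (range over the 12 libraries left out 0.0180 to 0.380). MSTRG.8629.1 was steady, at 553, 636 and 573 FPKM at 3 d and 539 to 922 FPKM on the other days (log2 difference -0.22 ± 0.29, SE, limma adjusted p = 0.578). Transcripts that share sequence could exchange reads in the authors' quantification, and this was not tested.

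Of the 10 lncRNAs that the study placed in its network of RNAs competing for microRNAs, all were called at 3 d, 5 higher and 5 lower, where 28.1% of all lncRNAs were called, and all 10 were called after rescaling. With a pseudocount of 1 the fold of 5 of them fell under the threshold, with log2 differences of 0.81 for MSTRG.20301.1, 0.99 for MSTRG.11531.1, -0.69 for MSTRG.5328.1, -0.53 for MSTRG.21593.1 and -0.88 for MSTRG.12019.1. The study chose them on these samples, so the count is not independent evidence of their direction. MSTRG.20301.1 was at 1.53, 0.54 and 0.50 FPKM at 3 d and at no more than 0.07 FPKM in any other library (log2 difference 2.76 ± 0.42, SE, limma adjusted p = 0.000581). It passed the filter of 0.1 FPKM through 3 d alone. MSTRG.20342.1 had 4.38, 2.06 and 1.2 FPKM against 0.03 to 0.43 FPKM (log2 difference 3.15 ± 0.44, SE, limma adjusted p = 0.000344), and MSTRG.11531.1 2.1, 0.97 and 0.98 FPKM against 0.08 to 0.29 FPKM. In each of these the first 3 d library was about 2 to 4 times the lowest of its day.

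Replicates of MSTRG.11050.1 diverged, with 4.13 and 3.23 FPKM in the first and second 3 d library but 0.39 FPKM in replicate 3, against at most 0.28 FPKM elsewhere (log2 difference 3.26 ± 0.60, SE, limma adjusted p = 0.00181). MSTRG.24321.5 was listed at 0 in the first 3 d library and at 45.07 and 28.75 FPKM in the others, while all libraries of other days were at 0 except one 9 d library at 0.19 FPKM. It passed the filter of 0.1 FPKM through 3 d alone. Its adjusted p of 0.0139 became 0.0819 without the second and 0.0764 without the last 3 d library (range over the 12 libraries left out 3.32e-06 to 0.0819).

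Among the lower network members, MSTRG.5205.1 fell from 5.52, 11.12 and 2.66 FPKM at 0 d to 0.20, 0.10 and 0.07 FPKM at 3 d and stood at 0.77 to 3.30 FPKM later (log2 difference -3.54 ± 0.37, SE, limma adjusted p = 6.17e-05). MSTRG.4322.1 was at 0.14, 0.10 and 0.12 FPKM at 3 d and at 1.24 to 1.96 FPKM in all other libraries. MSTRG.12019.1 and MSTRG.21593.1 had their highest mean at 0 d, where they ranged over 1.11 to 3.23 FPKM and 0.86 to 1.68 FPKM, and their lowest at 3 d, at 0.07 to 0.23 FPKM and 0.07 to 0.13 FPKM. MSTRG.5328.1 was listed at 0 at 3 d and peaked at 6 d with 1.6, 1.53 and 1.57 FPKM. MSTRG.5025.1, for which primers were designed though the network names MSTRG.5205.1, had 1.32, 0.93 and 1.75 FPKM at 3 d and 0.56 to 1.27 FPKM elsewhere and was not called (log2 difference 0.58 ± 0.22, SE, limma adjusted p = 0.0599).

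Loci with neighbouring numbers were often called in the same direction. The assembler is known to number loci along the genome, but positions were not used here, and the distance between consecutive numbers is unknown. With the transcripts of a locus summed, 6145 loci were tested and 1933 were called (31.5%), 1373 of them higher (22.3%) and 560 lower (9.11%). Of 2201 pairs of loci with consecutive numbers, 24.5% of the second loci were called higher over all pairs, but 66.3% after a first locus called higher (348 of 525). For lower calls these shares were 10.7% over all pairs and 70.8% after a lower first locus (153 of 216), and 14 pairs were called in opposite directions. After rescaling by the median ratio of loci they were 12.6% and 62.1% for higher, and 14.1% and 68.0% for lower calls. In the comparisons of the other days the share called higher was 56.1% after a higher first locus at 0 d (5.50% over all pairs), 58.7% at 6 d (3.91%) and 57.1% at 9 d (3.86%). The share called lower after a lower first locus was 50.8% at 0 d (5.00% over all pairs), 31.1% at 6 d (2.64%) and 34.5% at 9 d (4.68%). Whether neighbouring numbers belong to one transcript was not tested, and they are not taken as independent observations.

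Runs of at least 5 tested loci called one way, with steps in number of at most 5, held 183 of the 1373 loci called higher in 27 runs and 128 of the 560 called lower in 16 runs. After rescaling, 100 of 682 loci called higher lay in 14 runs and 165 of 834 called lower in 21 runs. This description was chosen after the values were seen. A run of 14 loci from MSTRG.20291 to MSTRG.20311, which holds the primer target MSTRG.20301.1, was called higher with log2 differences of 1.59 to 4.23. Over its loci the median FPKM was 1.6, 0.93 and 0.92 in the 3 d libraries and at most 0.085 in every other library. The primer target MSTRG.20342.1 lies in another run, of 7 loci from MSTRG.20339 to MSTRG.20347, with a median log2 difference of 2.85. The 13 loci from MSTRG.7706 to MSTRG.7719 had log2 differences of 1.97 to 3.67 and a median FPKM of 8.24, 3.73 and 3.78 at 3 d, 1.80 in the second 0 d library and 0.35 to 1.22 in the remaining 8. In the run of 9 loci from MSTRG.5134 to MSTRG.5144 the median FPKM was 4.39, 1.09 and 1.56 at 3 d and at most 0.01 elsewhere. Loci whose mean on the other days lay under 0.1 FPKM passed the filter through 3 d alone.

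The longest runs of lower calls held 15 loci each, from MSTRG.1447 to MSTRG.1461 and from MSTRG.19019 to MSTRG.19035. In the first of these the median FPKM was 0.06, 0.00 and 0.04 at 3 d and 0.23 to 1.52 in the other libraries. In the second it was 0.12, 0.00 and 0.03 at 3 d, 0.11, 0.44 and 0.11 at 0 d and 0.47 to 1.38 at 6 and 9 d, so that only 2 of its 15 loci had all 3 d libraries below all others. A run of 14 loci from MSTRG.8723 to MSTRG.8736 had log2 differences of -5.39 to -1.43 and contains MSTRG.8735.1. The adjacent MSTRG.8720.1 and MSTRG.8721.1 were also called lower, and MSTRG.8722 between them and the run was not called. All loci of these 3 runs, and of the runs from MSTRG.20291 and MSTRG.7706, were called in the same direction after rescaling.

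**Figure D4:**
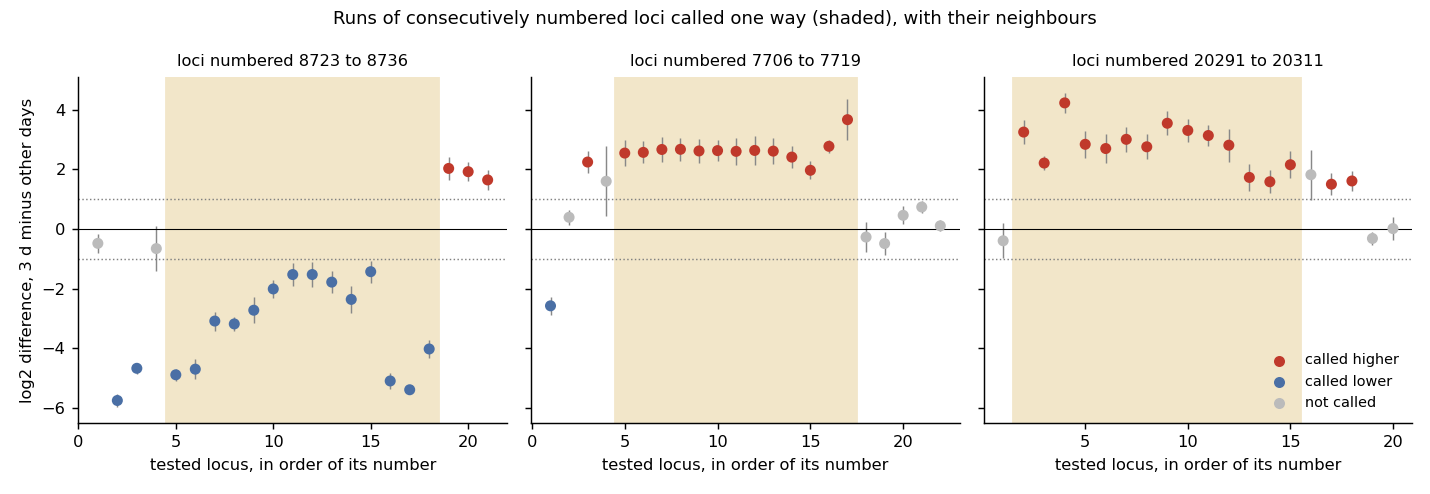
log2 difference of 3 d from the other days (y axis, with limma standard errors) for loci in the order of their numbers (x axis), in and around 3 runs of loci called one way (shaded). Red loci were called higher, blue lower and grey were not called, and dotted lines mark the fold threshold of 1. The 14 loci on the left lie between -5.39 and -1.43, and the 13 in the middle and 14 on the right between 1.59 and 4.23. All loci of the 3 shaded runs kept their direction and call after rescaling by the median ratio.

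Transcripts of one locus were rarely called in opposite directions. Of 372 loci with several tested transcripts, 38 had at least 2 called, and in 1 of these the directions differed. At this locus MSTRG.12751.2 was at 4.07, 2.56 and 2.37 FPKM at 3 d and 0.31 to 1.61 FPKM elsewhere (log2 difference 1.60 ± 0.25, SE, limma adjusted p = 0.000726). MSTRG.12751.1 was at 1.85, 1.86 and 0.83 FPKM at 3 d and 0.97 to 4.27 FPKM elsewhere, overlapping ranges, and its log2 difference of -1.05 ± 0.38 (SE, limma) with an adjusted p of 0.0480 lost the call in 11 of the 12 fits that leave out a library (range 0.00319 to 0.213).

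Annotated lncRNA genes, which the authors quantified in the mRNA table, gave a set of noncoding RNAs named by annotation rather than by the assembler. They were measured in the same 12 libraries, and their overlap with the assembled transcripts was not tested. By RefSeq biotype, matched on symbol, 665 lncRNA genes passed the filter, 121 were called higher at 3 d and 65 lower (28.0% called), and their median log2 difference was 0.34. Of 12007 protein-coding genes 870 were called higher and 1495 lower (19.7% called), with a median of -0.00055. The 1899 tested genes whose symbol had no match had 201 higher and 158 lower calls (18.9% called) and a median of 0.21. An upward median was thus not particular to the lncRNA genes, and all these counts use the deposited FPKM. Among all its genes, 3036 (19.7%) were called, 1277 higher (8.29%) and 1759 lower (11.4%). The median log2 level of the lncRNA genes was -0.43, -0.67 and -0.76 in the 3 d libraries, -0.86, -0.56 and -1.03 at 0 d and -1.15 to -0.86 at 6 and 9 d, so the first 3 d library and the second 0 d library were again the highest.

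Uncharacterised genes led this set, and they too were named after their values were seen. LOC100847171 had 16.17, 15.52 and 16.51 FPKM at 3 d and 1.27 to 1.86 FPKM in all others (log2 difference 3.25 ± 0.10, SE), and LOC112447469 had 12.15, 11.65 and 10.93 FPKM against 0.29 to 2.02 FPKM. LOC104975283 fell from 6.40, 5.49 and 6.07 FPKM at 0 d to 0.24, 0.00 and 0.52 FPKM at 3 d and stood at 1.71 to 2.68 FPKM later. Of 31 lncRNA genes listed by name, 8 were in the table, and 1 of them was called. H19, an imprinted lncRNA abundant in fetal tissue and myoblasts, was at 24.59, 27.17 and 25.93 FPKM at 3 d and at 25.66, 26.09 and 26.68 FPKM at 0 d, then at 5.99 to 8.32 FPKM at 6 and 9 d. Its call of higher at 3 d (log2 difference 1.23 ± 0.06, SE, limma adjusted p = 8.64e-08) therefore rests on the later days. SNHG3, a host of small nucleolar RNAs, read 2.80, 2.55 and 2.31 FPKM at 3 d and 0.90 to 1.97 FPKM elsewhere without reaching the fold (log2 difference 0.85 ± 0.17, SE). MEG3, an imprinted lncRNA, was at 29.64 to 60.98 FPKM at 3 d and 48.91 to 85.04 FPKM elsewhere, overlapping ranges, and was not called (log2 difference -0.40 ± 0.20, SE).

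Lists of genes of hormone responses and cell types were counted in the mRNA table, in which calls at 3 d made up 8.29% (higher) and 11.4% (lower) of the tested genes. Of 12 tested glucocorticoid response genes 7 were called higher and 1 lower, and their summed FPKM was 3698 to 3825 at 3 d and 1448 to 3484 on the other days. Most of that sum came from CEBPD (2435 to 2447 FPKM at 3 d) and DUSP1 (601 to 649 FPKM), neither of which was called. The sums given here follow the most abundant genes of a list and do not stand for its called genes. Among 14 cAMP response genes 5 were called higher and none lower (715 to 1341 FPKM against 239 to 609). Their sum includes PDE4D, at 119, 717 and 725 FPKM in the 3 d libraries. The other called genes read 309 to 342 (PDE7B), 1.44 to 1.68 (PPARGC1A), 0.47 (RGS2) and 0.20 to 0.27 FPKM (PCK1) at 3 d. Of 13 adipocyte genes 6 were higher and 1 lower (380 to 442 FPKM against 48.8 to 297). Skeletal muscle genes were present in all libraries, with 4 of 12 called lower and a sum of 450 to 557 FPKM at 3 d against 649 to 1900. Of 13 preadipocyte and fibroblast genes 2 were called higher and 2 lower. Endothelial (3.47 to 3.73 against 2.52 to 3.73 FPKM) and blood and immune sums (5.05 to 5.89 against 1.12 to 5.54) were low in all libraries, with 1 gene called higher in each list. The part of any of these changes in the lncRNA differences was not tested.

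**Figure D5:**
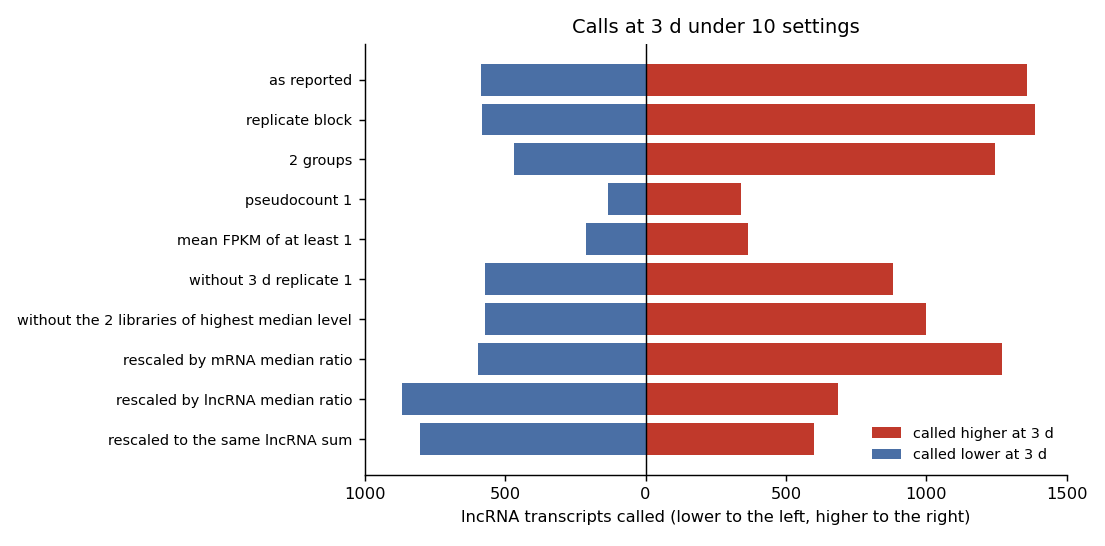
Number of lncRNA transcripts called higher (right) and lower (left) at 3 d (x axis) under 10 settings of the comparison (y axis). The reported fit has 1358 higher and 585 lower calls. Higher calls outnumber lower calls in 8 of the settings, and lower calls outnumber higher calls when the libraries are rescaled by the lncRNA median ratio (687 higher, 868 lower) or to the same lncRNA sum (600 higher, 804 lower).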

How the data were processed

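RNA of bovine intramuscular preadipocytes was sequenced by the authors at 0, 3, 6 and 9 d, with 3 libraries a day. The paper describes strand-specific libraries depleted of rRNA, whereas the sample labels describe poly(A) selection. The submitters' processing notes name HISAT2 2.0 and StringTie 1.3.0, and list the build mm8, while the paper names a bovine assembly. The authors kept transcripts over 200 bases that overlapped no known mRNA and passed filters on coding potential, and deposited FPKM for lncRNA transcripts and for genes of the mRNA table. FPKM hold no counts, so the depth behind a value is unknown and no counting interval is given. Of the per-sample columns in the used tables, 0 stayed out of the work. The circRNA and miRNA tables were not used here.

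The day in each title set its group. For transcripts with a mean of at least 0.1 FPKM, log2(FPKM + 0.1) entered limma 3.58.1 in R 4.3.3 (functions lmFit and contrasts.fit, then eBayes with a trend), in 1 fit with a mean for each day, so that all days share an estimate of the spread. The contrast was 3 d minus the mean of 0, 6 and 9 d. Calls need an absolute log2 difference over 1 and a Benjamini-Hochberg adjusted p under 0.05 over all features tested. Fold changes are on the log2(FPKM + 0.1) scale, which understates changes of low transcripts. Library measures were compared by exact two-sided permutation over 220 splits. The fit was tested on simulated data. Figures used Matplotlib 3.10.9 and Python 3.11.15.

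Named lncRNAs were the 10 largest rises and the 10 largest falls among called transcripts with a mean of at least 1 FPKM whose 3 d libraries lie outside all others (1 a locus), the 10 most abundant, the 10 of the study's network with MSTRG.5025.1, and the loci called in both directions. A planned comparison with mRNAs of the same locus was not made, because the mRNA table gives gene names and no locus numbers. Gene lists were written by hand, and their genes that had no row, such as PPARG, PLIN1, MALAT1 and NEAT1, were not analysed here. Members, rules and lists were chosen with earlier results of these data known. Primer sequences come from the study's supplement, and gene biotypes from RefSeq (2834 lncRNA genes of the table matched by symbol).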

Additional observations from a re-analysis of the deposited data

How the results depend on the processing

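The 1943 lncRNAs called at 3 d became 475 with a pseudocount of 1 and 576 of those with a mean of at least 1 FPKM, a setting that tests 2673 transcripts. Transcripts called one way against each day went from 860 to 260 and 298 under the same settings and to 550 when libraries were rescaled to the same lncRNA sum, and those with all 3 d libraries outside the others from 1309 to 404 and 435. Loci went from 1933 to 463 and 592, and mRNAs from 3036 to 1728 with a pseudocount of 1. Calls of 0 d (660) became 137 and 214, those of 6 d (342) 44 and 120, and those of 9 d (441) 72 and 183. The share of higher calls, 69.9%, turned to 44.2% under rescaling by the lncRNA median ratio and 42.7% under rescaling to the same lncRNA sum, with median differences of -0.0213 and -0.0059. By construction these settings remove a shift shared by the lncRNAs. A pseudocount of 0.01, no filter, rescaling by the mRNA ratio, eBayes without a trend or robust, and a model of 2 groups moved no count of 3 d calls by over 1.5 times, and the model of 2 groups gives no count against single days.

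Leaving out each library in turn gave 1451 to 2091 calls at 3 d, a share higher of 60.7% to 72.9%, a median difference of 0.25 to 0.53, 621 to 914 transcripts called one way, 1243 to 1524 outside all others, 1447 to 2070 loci and 2874 to 3092 mRNAs. For the other days the ranges were 409 to 675 (0 d), 191 to 361 (6 d) and 217 to 562 (9 d). Counts moved by over 1.5 times without the first 0 d library (409), without the second (191) or last (205) 6 d library, and without any 9 d library (243, 217 and 255). The difference of the library medians was 0.32 to 0.66 and lost its call without the first 3 d library. For MSTRG.21027.1 the log2 difference was -0.17 and ranged from -0.54 to 0.56 (reversed without the second 3 d library), and for MSTRG.25567.2 it was 2.83 and ranged from -2.14 to 5.31 (reversed likewise); neither was called. MSTRG.25567.3 was called only without the second 6 d library (adjusted p = 0.0472, range 0.0472 to 0.704). Of 1024 values of named lncRNAs under alternatives, 991 kept direction and call.

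Pairing of libraries by replicate number was not seen. Same-numbered libraries of different days deviated from their day means with r of -0.11 to 0.08, and differently numbered ones with r of -0.15 to 0.14. Of the 12 libraries, 5 correlated best with a library of their own number. With 3 libraries a day and noisy lncRNA levels, these r cannot tell whether same-numbered libraries share an origin. With a replicate block 1968 lncRNAs were called at 3 d (70.4% higher), and the block changed no named call and moved no count by over 1.5 times. Leaving out the first 3 d and the second 0 d library together gave 1568 calls (63.6% higher). This alternative, those for loci and for calls of 0, 6 and 9 d, and the left-out libraries for mRNAs were chosen after seeing the data. The cause of these changes was not tested otherwise. FPKM of 2 decimals and without counts limit what can be said of transcripts under 0.3 FPKM.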
